A study of Mus musculus with 4 samples.

Results

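Intermediate m6A sites inside genes are adenosines of annotated transcripts that were read as methylated in a substantial part, but not in nearly all, of the RNA copies of untreated mouse retinal organoids. N6-methyladenosine (m6A) is a methyl mark on adenosine that the METTL3 and METTL14 complex deposits on nascent mRNA, mostly towards the 3′ end of transcripts. Reader proteins of the YTH family bind the mark and affect the splicing, translation and decay of the mRNA, and in neural progenitors m6A is known for its part in the timely decay of transcripts during fate changes. A site at an intermediate level is methylated on some copies of a transcript and bare on others.

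The libraries were made with GLORI, in which glyoxal and nitrite turn unmethylated adenosine into inosine, read as G, while m6A is still read as A. The level of a site is the percentage of its A and G reads that carry A. A site was taken as intermediate if the authors' tables placed it in a named gene and listed it in both untreated libraries with at least 20 reads and a level from 40% to under 90% in each. Mitochondrial sites, predicted Gm genes and named pseudogenes were left out. This gave 2026 sites in 1676 genes, out of 22599 genic sites with at least 20 reads in both untreated libraries and 1076788 positions listed in any library. Of the other genic sites, 12228 lay at 10% to under 40% in both untreated libraries, 1363 lay at 90% or more in both, and 6982 fell into different classes in the 2 libraries.

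All 4 libraries came from day 6 retinal organoids of the Rx:GFP line, a reporter of the retinal field, with FKBP12F36V-HA knocked in at the C-terminus of endogenous Mettl3. The untreated controls carry the same knock-in. Proteins with the FKBP12F36V tag are sent to the proteasome by the small molecule dTAG13. The 2 untreated libraries (0 h) received no dTAG13, the 2 dTAG13 libraries came from organoids given 125 nM for 8 h, and all cells were collected together. The organoids were differentiated in a medium that held serum replacement and a compound labelled AGN, and polyA RNA was profiled. The genotype entries name Mettl3, Mettl4, Mettl5 and Mettl6 in turn, 1 per sample, but the title and design of the series name METTL3 throughout. The tables hold no measure of METTL3 protein. No label says whether the replicates of a group came from separate cultures, so p-values measure the spread between these libraries, which may be technical. The labels give all 4 the same batch.

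The untreated libraries listed 335607 and 350462 positions and the dTAG13 libraries 220034 and 263069, with a median of 75 to 91 reads per listed position. Only called positions are listed: the lowest values in each table were 15 reads, 5 A reads and a level of 10%. The highest adjusted p from the authors' own site calling was 0.00401 in each library. A position can thus be missing from a table because it is unmethylated, uncovered or outside one of these limits. All 6 retinal progenitor markers had a gene coverage value in every library, and their summed coverage was 2029 and 2409 untreated and 1493 and 2100 with dTAG13. The 5 pluripotency markers also had values in every library, summed to 919 and 916 untreated and 678 and 988 with dTAG13. The summed coverage of pigment epithelium markers was 354 to 448, and that of neuron markers 283 to 380. Mesendoderm markers summed to 221 and 26.0 untreated and 29.3 and 120 with dTAG13, with no value for T in any library, and neural crest markers to 63.0 and 235 untreated and 79.5 and 53.7 with dTAG13. Whether the mix of cells had a part in the levels was not tested.

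The sites were chosen by their untreated levels, which are given as a description; these centred near the middle of the window. The mean of both libraries had a median of 60.1%, a middle 50% of sites from 52.5% to 68.5%, and a range from 40.0% to 89.4%. Most sites lay in the lower part of the window: 357 had a mean under 50%, 643 lay at 50% to under 60%, 594 at 60% to under 70%, 316 at 70% to under 80% and 116 at 80% or more. The reads behind a site had a median of 142 in untreated replicate 1 and 155 in replicate 2, with a range from 20 to 14994 and from 20 to 17216. The 2 untreated libraries differed by a median of 11.5 percentage points at a site, against 3.88 points from counting error alone. At the 641 sites with at least 200 reads in both, the difference was 9.02 points against 2.02 points from counting. The correlation of the levels across sites, which share libraries and are not independent, was 0.21 over all sites and 0.43 at those 641 sites. The spread between these 2 libraries was thus larger than counting error gives.

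Of the 1676 genes, 1664 were protein-coding, 8 were long noncoding, 3 were pseudogenes that the name filter had passed, and 1 had no matching name in the RefSeq table. They made up 14.03% of the 11946 genes with a listed position in both untreated libraries. Chromosome 11 held the most intermediate sites (179, or 8.84%), close to its 8.80% of the genic sites of both libraries, and X held 44 (2.17%, against 3.27%). Positions below are those of the tables. The submitters' processing notes name mm10, but the contig names belong to GRCm39 and only 178 of 2025 sites (8.79%) lay inside the GRCm38 interval of their gene, so no exon, intron, UTR or sequence motif was assigned.

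Intermediate sites lay near the 3′ end of the gene's listed span more often than the other level classes did. For the 2016 sites in genes with at least 10 listed positions, the median distance from the 3′-most listed position of the gene was 1084 nt, counted along the genome with introns included. The share within 1000 nt was 47.9%, against 39.7% of the low sites and 33.3% of the near-complete sites, whose median distances were 1506 and 1760 nt. Positions that met the window in only 1 untreated library lay farther away, with a median of 2666 nt and 28.4% within 1000 nt. In the same genes as the intermediate sites, such positions had a median of 2992 nt and 25.1% within 1000 nt. These shares describe sites of the same 2 libraries and were not tested.

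**Figure D1:**
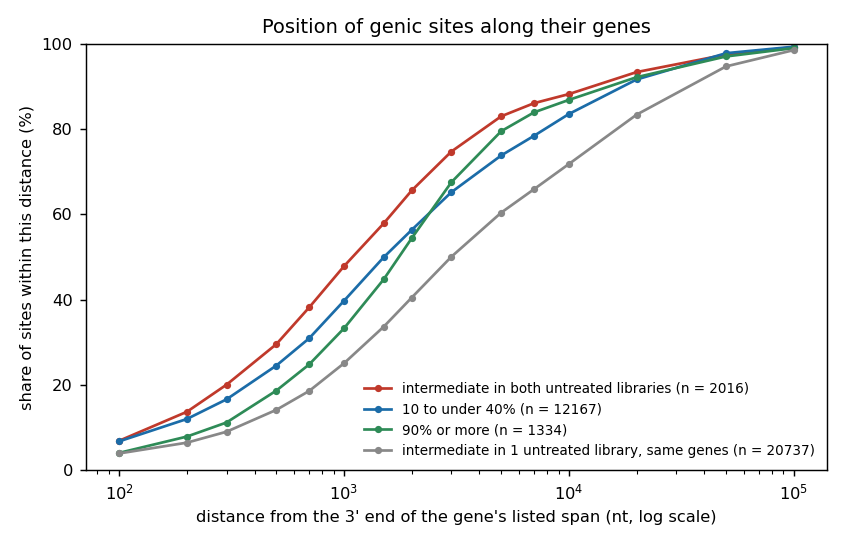
Cumulative share of genic sites (percent) by distance from the 3′ end of the gene's listed span (nt, log scale, introns included), for sites in each level class in both untreated libraries and for positions in the window in 1 untreated library only, in the same genes. The curve of the 2016 intermediate sites runs above the others up to 10000 nt and reaches 47.9% at 1000 nt.

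Most of these genes carried a single intermediate site: 1379 had 1 (82.3%), 254 had 2 and 43 had 3 or more. Only 58 of the 2026 sites (2.86%, Wilson 95% interval 2.22 to 3.68%) had another intermediate site within 50 nt on the same strand of the gene. They formed 29 pairs and no longer run. Of the low sites 18.1% (17.4 to 18.8%) had a low neighbour within 50 nt, and of the near-complete sites 2.64% (1.91 to 3.63%) had a near-complete one. The low class held more sites, in 5123 genes, and neighbours were counted within each class.

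The 3 pairs with the most reads lay in Tmpo, Cltc and Gspt1. Tmpo, a protein of the nuclear lamina, had its sites 48 nt apart at chr10:90985119 (48.0% and 59.8% in untreated replicates 1 and 2) and chr10:90985167 (81.0% and 88.2%). Cltc, the clathrin heavy chain, had sites 24 nt apart at chr11:86586252 (44.7% and 41.5%) and chr11:86586276 (51.1% and 67.4%). In Gspt1 the sites at chr16:11071980 (41.6% and 47.8%) and chr16:11072020 (73.9% and 79.2%) were 40 nt apart. In each of the 3 pairs the same site was the higher one in both libraries.

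The first question was whether intermediate sites became fewer after dTAG13. The window was applied to each library alone, which favours neither group. It held 48485 and 49601 genic sites untreated and 33083 and 37192 with dTAG13, means of 49043 ± 789 and 35138 ± 2906 (SD, n = 2 each) and a ratio of 0.716. Each dTAG13 library held fewer than each untreated library, and the gap between the groups was larger than the gap within them. An exact two-sided permutation test gave p = 0.33, and no smaller value is possible with 2 libraries a group. As a share of all genic sites with at least 20 reads the window held 20.8% and 20.2% untreated and 20.9% and 20.5% with dTAG13. These shares, 20.5% ± 0.39 and 20.7% ± 0.23, were closer to each other than the untreated libraries were (exact permutation p = 0.667). Single-library numbers are mostly made of positions seen once: the untreated pair had 2026 sites in the window in both, the dTAG13 pair 336, and the 4 mixed pairs 399 to 445.

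Few of the 2026 sites were listed again after dTAG13. dTAG13 replicate 1 listed 163 (8.05%, Wilson 95% interval 6.94 to 9.31%) and dTAG13 replicate 2 listed 179 (8.84%, 7.68 to 10.2%). Of all 2026, 45 were listed in both, 297 in at least 1 and 1729 (85.3%) in neither. Both untreated libraries list every one of them by the rule, so these shares have no untreated counterpart. The low sites were listed more often, at 15.2% and 15.6%, and the near-complete sites at 11.9% and 12.8%. The intervals of the intermediate class lay below those of these 2 classes. The 6982 sites in different classes in the 2 untreated libraries were listed less often still, at 6.47% and 7.32%, so low recovery was not particular to the intermediate class. Intervals treat sites as independent, although they share libraries and genes, and do not measure the spread between libraries. PCR copies of a molecule may also have been counted as separate reads. The classes differed in depth, with median untreated reads of 208 and 228 (low), 142 and 155 (intermediate) and 58 and 65 (near-complete). Whether depth had a part in the order of the classes was not tested.

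**Figure D2:**
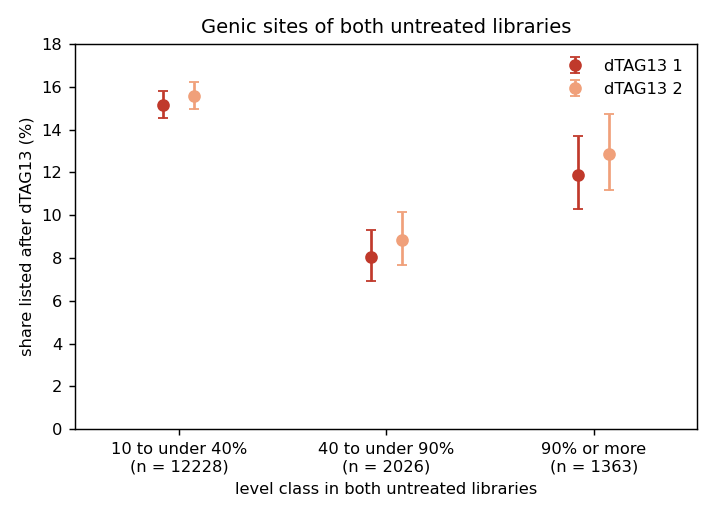
Share of genic sites listed after dTAG13 (percent), for the 3 level classes that hold in both untreated libraries. Points are the 2 dTAG13 libraries and bars are Wilson 95% intervals. Intermediate sites, at 8.05% and 8.84%, are the lowest of the 3 classes drawn in both libraries. Sites in different classes in the 2 untreated libraries are not drawn and were listed at 6.47% and 7.32%.

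At the sites still listed after dTAG13, the median level was 22.5% in dTAG13 replicate 1 and 22.1% in dTAG13 replicate 2, whereas the same sites had median untreated means of 61.5% and 62.9%. In dTAG13 replicate 1, 125 of the 163 sites had left the window downwards, 32 were still in it and 6 lay at 90% or more. In dTAG13 replicate 2 these numbers were 132, 37 and 10 of 179. Of the listed sites 138 (84.7%) and 146 (81.6%) lay below both untreated libraries, and 14 and 20 lay above both. The near-complete sites that were listed had medians of 40.7% and 37.4%, against untreated medians of 98.6% and 98.8%. Of these, 84.6% and 86.3% lay below both untreated libraries, so such a fall was not particular to the intermediate class. The low sites that were listed had medians of 17.0% and 17.4%, against untreated medians of 16.6% and 16.8%. Of these low sites, 28.9% and 28.1% lay below both untreated libraries, and more of them, 41.9% and 42.4%, lay above both. The levels reached down to the listing limit of 10%, so lower values could not appear. The untreated values here are those that chose the sites; the background from a library that the choice did not use is given with the sites of 1 untreated library.

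**Figure D3:**
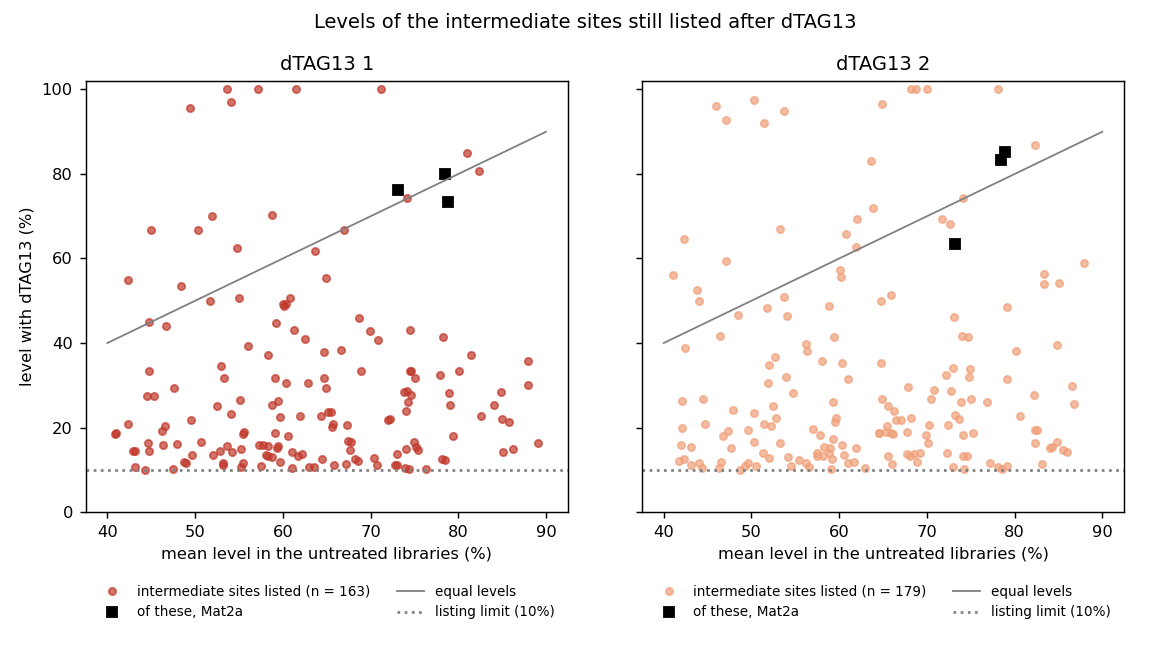
Level after dTAG13 (percent) against the mean untreated level (percent) of the intermediate sites listed in dTAG13 replicate 1 (163 sites) and dTAG13 replicate 2 (179 sites). The line marks equal levels and the dotted line the listing limit of 10%. Most points lie between 10% and 40%, while the 3 Mat2a sites (black squares) lie at 63.3% to 85.2%.

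The share listed after dTAG13 was 6.84% to 7.84% in replicate 1 and 7.15% to 8.68% in replicate 2 for sites with an untreated mean under 70%. It was 11.4% and 12.03% at 70% to under 80%, and 12.1% and 17.2% at 80% or more, with 116 sites in the last class. The read number was tied to the share as well. Sites whose poorer untreated library had 20 to under 50 reads were listed at 4.58% and 3.92%, and those with 500 reads or more (256 sites) at 17.2% and 17.6%. The deepest sites also had the lowest levels after dTAG13, with medians of 14.9% and 16.5% against 41.4% and 46.5% at the shallowest. No listed position had fewer than 5 A reads, so a position with few reads can be listed only at a higher level. The part of this limit in these medians was not tested.

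At the edges of the window few sites were listed after dTAG13, and the shares just inside and outside it rest on 2 to 10 sites each. Of 63 sites at 35% to under 40% in both untreated libraries, 6.35% and 12.7% were listed after dTAG13, and of 62 sites at 40% to under 45%, 11.3% and 16.1%. At the upper edge the 16 sites at 85% to under 90% gave 18.8% and 12.5%, and the 29 sites at 90% to under 95% gave 20.7% and 17.2%.

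An untreated background was had by choosing sites in 1 untreated library and following them in the other 3 libraries. Of the 48485 genic sites in the window in untreated replicate 1, 10.8% were found again in untreated replicate 2, 3.30% in dTAG13 replicate 1 and 3.72% in dTAG13 replicate 2. Of the 49601 sites of untreated replicate 2, 10.2% were found again in untreated replicate 1, and 3.17% and 3.43% after dTAG13. The dTAG13 shares were on average 0.324 of the untreated share. Where listed, the sites of untreated replicate 1 had a median level of 42.9% in untreated replicate 2 and of 32.5% and 31.2% with dTAG13. For those of untreated replicate 2 it was 48.4% in untreated replicate 1 and 32.1% and 31.4% with dTAG13. All 3 shares were higher at sites with more reads. Sites in the window in dTAG13 replicate 1 were found again at 4.41% in dTAG13 replicate 2, and at 5.83% and 5.88% in the untreated libraries. Those of dTAG13 replicate 2 were found again at 3.52% in dTAG13 replicate 1, and at 5.59% and 5.67% in the untreated libraries. Recovery in the dTAG13 libraries was thus low for window sites chosen in either group.

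At 500 reads or more, a limit chosen after the data were seen, untreated replicate 1 had 676 such sites. Of these, 68.0% (Wilson 95% interval 64.4 to 71.5%) reappeared in untreated replicate 2, whereas 13.9% (11.5 to 16.7%) and 14.1% (11.6 to 16.9%) did so after dTAG13. Where listed, their median level was 52.2% in untreated replicate 2 and 16.3% and 16.4% with dTAG13. The 764 sites of untreated replicate 2 gave the same picture. They were listed at 69.0% (65.6 to 72.2%) in untreated replicate 1, with a median level of 54.3%, and at 11.8% and 11.9% in the dTAG13 libraries, with median levels of 16.7% and 17.4%. At 20 to under 50 reads the sites of untreated replicate 1 were listed at 5.83% in the other untreated library and at 2.35% and 2.58% with dTAG13. The median level of those listed was 39.2% in that library, against 42.4% and 39.1% after dTAG13. The limit of 5 A reads holds here too, and keeps low levels at few reads from being listed.

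**Figure D4:**
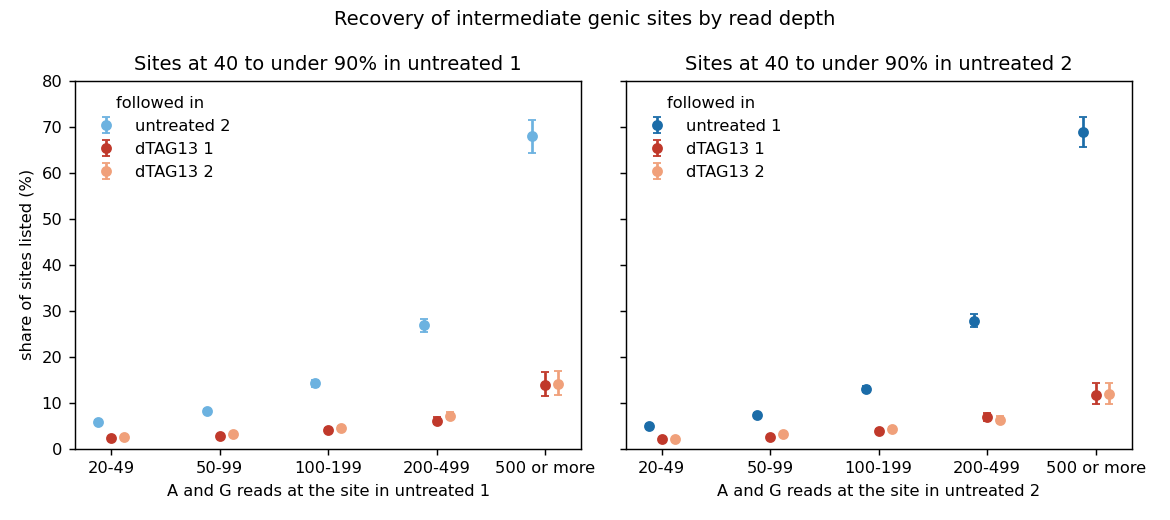
Share of genic sites listed in the other 3 libraries (percent), for sites at 40% to under 90% in untreated replicate 1 (left) or untreated replicate 2 (right), by the number of A and G reads at the site in that library. Bars are Wilson 95% intervals. At 500 reads or more the untreated shares are 68.0% and 69.0% and the dTAG13 shares lie between 11.8% and 14.1%.

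The dTAG13 libraries listed fewer positions, and a position with no reads cannot be listed. The comparison was therefore repeated at positions with another listed position of at least 50 reads within 20 nt in the library followed, a choice made after the data were seen. From untreated replicate 1, 18.7% reappeared in untreated replicate 2, and 8.47% and 8.10% after dTAG13. From untreated replicate 2, 20.98% reappeared in untreated replicate 1, and 8.30% and 8.32% after dTAG13. Among the 2026 sites, 451 and 530 had such a covered neighbour in the dTAG13 libraries, and 12.2% and 12.5% of these were listed.

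The same rule turned round, applied to both dTAG13 libraries, gave 336 sites in 323 genes. The untreated libraries listed 14.3% and 16.4% of them, with median levels of 61.2% and 43.8%. Of those listed, 68.8% and 56.4% were at 40% or more in the untreated libraries. For the 2026 untreated sites listed after dTAG13, that share was 23.3% and 26.3%. Sites in the window in both dTAG13 libraries were thus also seldom listed in the other group, but where they were, their levels were higher.

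The change of level could be tested at the 45 intermediate sites listed in all 4 libraries, as rows of a fit over all 2321 sites listed in all 4 with at least 20 reads in each. In this quasi-binomial fit 17 of the 45, at an adjusted p under 0.05, were lower with dTAG13 and 0 were higher. Over all sites tested in this fit 51 were lower (2.2%) and 2 were higher (0.0862%). By edgeR 17 of the 45 were lower and 0 higher, and 52 of all 2321 sites were called. At an unadjusted p under 0.05 in the quasi-binomial fit, 29 of the 45 were lower and 0 higher. The unadjusted share over all sites was not counted, so these 29 have no background. At 31 of the 45 the groups did not overlap and dTAG13 was lower, which was so at 19.4% of all sites tested. None lay above both, against 17.8% of all sites, and at 14 the groups overlapped. Since the untreated level chose these sites, the counts are a description. The fit was over sites of any listed level, and a site near the listing limit cannot fall far and stay listed. The shares over all sites tested are thus not matched to the 45 sites in untreated level. The part of the untreated level in these contrasts was not tested. The median level over the 45 was 63.0% and 63.2% untreated and 25.3% and 30.5% with dTAG13. The change of the site means had a median of -36.1 points and ran from -67.3 to 8.74 points. No site passed after any 1 of the 4 libraries was left out, which leaves 1 residual degree of freedom.

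**Figure D5:**
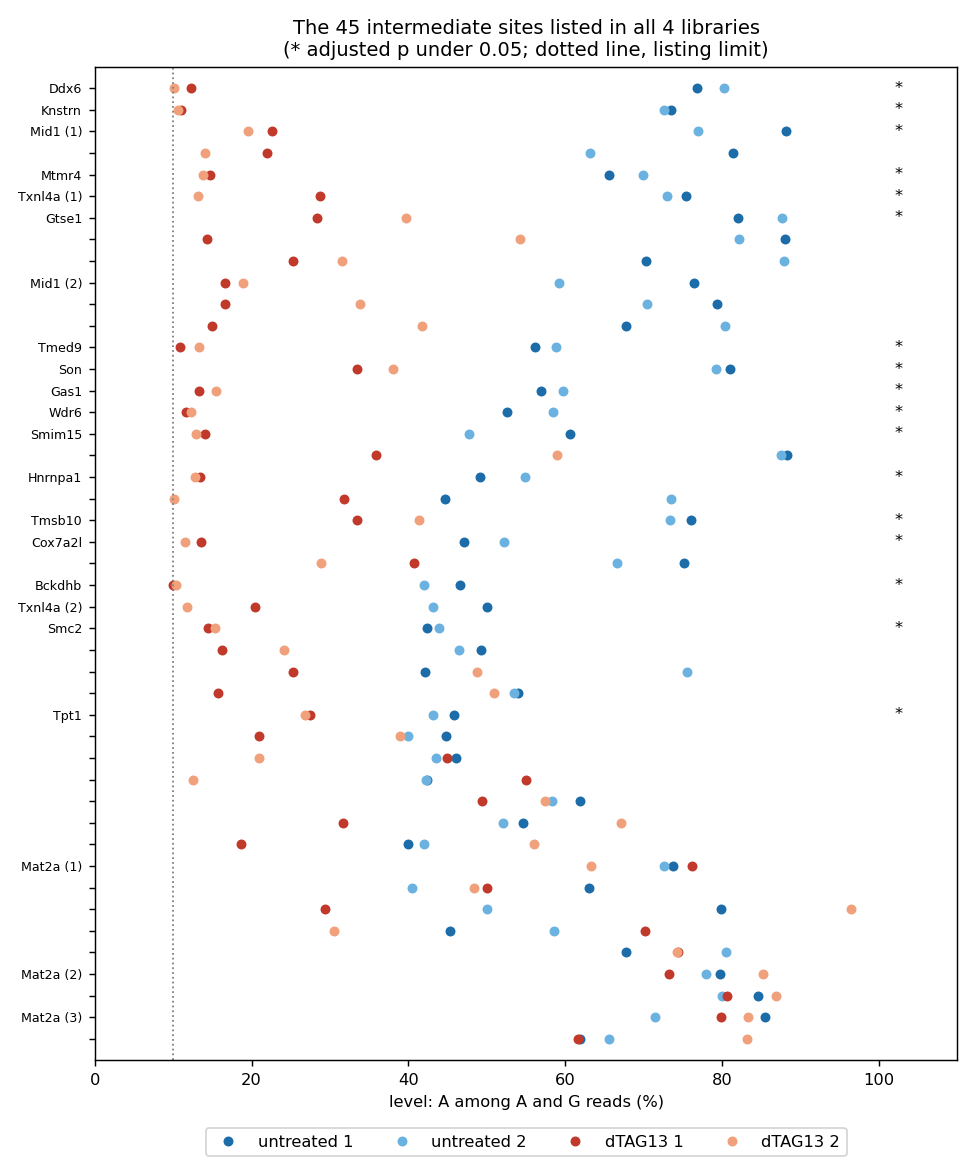
Level (percent) of the 45 intermediate sites listed in all 4 libraries, 1 row per site, sorted by the change with dTAG13 from the largest fall at the top. Dots are the 4 libraries, stars mark an adjusted p under 0.05, names are given for starred sites and for genes with several sites, and the dotted line is the listing limit of 10%. The 17 starred sites have both dTAG13 values below both untreated values.

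The largest falls among the 17 were in Ddx6, Knstrn and Mid1. The Ddx6 site (chr9:44548145, plus strand) was at 76.8% and 80.2% untreated and at 12.3% and 10.1% with dTAG13, with 298 to 423 reads. Ddx6 is an RNA helicase of processing bodies that acts in translational repression and mRNA decapping. Its mean fell from 78.5% ± 2.38 to 11.2% ± 1.49 (SD, n = 2; adjusted p 0.0070), with both treated values close to the listing limit. Knstrn, a kinetochore and spindle protein, was at 73.4% and 72.6% untreated and at 11.01% and 10.6% with dTAG13 (chr2:118665014, plus strand, 109 to 274 reads, adjusted p 0.0070). In both genes the libraries of a group lay within 4 points of each other.

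Mid1, a microtubule-associated ubiquitin ligase, had 2 of its 3 intermediate sites listed in all 4 libraries, 10 nt apart on the plus strand. At chrX:168773398 the level was 88.2% and 76.9% untreated and 22.6% and 19.5% with dTAG13 (adjusted p 0.0257). At chrX:168773388 it was 76.4% and 59.1% untreated and 16.6% and 18.9% with dTAG13, with no overlap but an adjusted p of 0.0787. The same reads can cover both positions, so they are not independent. The first Mid1 call was not kept by limma on log2 odds (adjusted p 0.0512). The third Mid1 site, at chrX:168762355, was at 79.8% and 83.8% untreated and unlisted in both dTAG13 libraries.

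Mtmr4, a phosphatase of endosomal phosphoinositides, was at 65.5% and 69.9% untreated and at 14.7% and 13.8% with dTAG13 (chr11:87505633, plus strand, adjusted p 0.00871). Txnl4a, a component of the spliceosomal U5 particle, was at 75.4% and 72.9% untreated and at 28.8% and 13.1% with dTAG13 (adjusted p 0.0417). The Txnl4a call was lost with limma on log2 odds (0.119) and with edgeR (0.0557). Gtse1, a microtubule protein of the G2 phase, was at 82.1% and 87.7% untreated and at 28.3% and 39.6% with dTAG13 (chr15:85746340, plus strand, adjusted p 0.0299, and 0.0564 with limma). The dTAG13 libraries were thus apart by over 10 points in Txnl4a and Gtse1, but below both untreated libraries in each.

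Tmed9, a cargo receptor between the endoplasmic reticulum and the Golgi, was at 56.1% and 58.9% untreated and at 10.9% and 13.3% with dTAG13 (chr13:55745003, plus strand, adjusted p 0.0070). Son, a scaffold of nuclear speckles that acts in splicing, was at 81.0% and 79.3% untreated and at 33.5% and 38.0% with dTAG13 (chr16:91455475, plus strand, adjusted p 0.00895). Its other 2 intermediate sites were unlisted in both dTAG13 libraries. Gas1, a co-receptor of Sonic hedgehog, was at 56.9% and 59.7% untreated and at 13.2% and 15.4% with dTAG13 (chr13:60322381, minus strand, 453 to 894 reads, adjusted p 0.0070). Wdr6, a partner of tRNA methylation, was at 52.5% and 58.4% untreated and at 11.6% and 12.2% with dTAG13 (chr9:108452819, minus strand, adjusted p 0.00941). Replicates of these 4 sites agreed to within 6 points, and each fell by over 43 points.

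The other 7 sites past the threshold lay in Smim15, Hnrnpa1, Tmsb10, Cox7a2l, Bckdhb, Smc2 and Tpt1. Hnrnpa1, an abundant splicing regulator, was at 49.1% and 54.9% untreated and at 13.5% and 12.8% with dTAG13, from 2783 to 6104 reads (chr15:103152844, plus strand, adjusted p 0.00757). Tpt1, which encodes the translationally controlled tumour protein, was the most deeply read of the 45 in its poorest library, with 6572 to 10767 reads at chr14:76085620. Its level was 45.9% and 43.1% untreated and 27.4% and 26.8% with dTAG13, the smallest fall among the 17, at 17.4 points (adjusted p 0.00891, and 0.242 with limma on log2 odds). Tpt1, Hnrnpa1, Tmsb10 and possibly Cox7a2l have near-identical copies elsewhere in the genome, so their calls are uncertain. Smim15, Bckdhb and Smc2 changed by -40.6, -34.1 and -28.2 points.

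Among the 28 sites that did not pass, 14 had both dTAG13 libraries below both untreated ones. Ldb1, a cofactor of LIM-homeodomain factors such as Lhx2, was at 70.3% and 87.8% untreated and at 25.3% and 31.6% with dTAG13, from 843 to 1651 reads (chr19:46021312, minus strand, adjusted p 0.0919). Its untreated libraries had an SD of 12.4 points. The fit with the smallest adjusted p among the 28 was that of Sdf2, at 49.3% and 46.5% untreated and 16.2% and 24.2% with dTAG13 (0.0765).

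Mat2a stood among the sites with the smallest changes and was the only gene with 3 intermediate sites listed in all 4 libraries. It encodes the methionine adenosyltransferase that makes S-adenosylmethionine, the methyl donor, and hairpins of its 3′ UTR are known substrates of METTL16, a methyltransferase distinct from METTL3. Whether the 3 sites lie in such hairpins was not assigned here. At chr6:72410155 (minus strand) the level was 73.7% and 72.6% untreated and 76.1% and 63.3% with dTAG13, from 1315 to 2028 reads. At chr6:72410270 it was 85.5% and 71.4% untreated and 79.9% and 83.3% with dTAG13. At chr6:72411233 it was 79.7% and 77.9% untreated and 73.3% and 85.2% with dTAG13. The groups overlapped at all 3 sites. Their mean changes were -3.43, 3.16 and 0.38 points, with adjusted p of 0.878, 0.922 and 0.940. The sign of each depended on single libraries. The change at chr6:72410155 was 2.97 points without dTAG13 replicate 2, and that at chr6:72410270 was -3.87 points without untreated replicate 2. At chr6:72411233 it was -0.51 points without untreated replicate 2 and -5.58 points without dTAG13 replicate 2. Each site had 389 or more reads in every library, within the depth of sites that passed. Changes this small cannot be told from the spread between replicates, whose SD reached 9.94 points untreated and 9.06 points with dTAG13.

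In all, 15 of the 45 sites had a mean change within 15 points, the 3 of Mat2a among them. Abl1, a tyrosine kinase, showed how far replicates could part, with 79.9% and 50.0% untreated and 29.4% and 96.5% with dTAG13 from 80 to 170 reads. A site with such a spread gives no call in either direction at 2 libraries per group.

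Most well-read intermediate sites were not followed in this way because dTAG13 libraries did not list them. Of the 1729 sites in neither dTAG13 library, 183 had at least 500 reads in both untreated libraries, and 133 had a covered neighbour in both dTAG13 libraries. The deepest were 2 sites of Ran, the GTPase of nuclear transport, at chr5:129100123 (42.7% of 14994 reads and 40.5% of 14201 reads) and chr5:129100065 (83.6% and 82.7%). Ran gene coverage was 3287 and 3180 untreated and 1715 and 2679 with dTAG13, and coverage at the sites themselves is not known. Hdac2, a histone deacetylase, was at 66.4% and 61.1% from 5982 and 5942 reads. Cct6a, a subunit of a cytosolic chaperonin, was at 74.6% and 76.4% from 4784 and 5083 reads. Eif3b, a translation initiation factor subunit, was at 86.5% and 87.5% from 4769 and 4239 reads. These 5 sites agreed between the untreated libraries to within 6 points and were unlisted in both dTAG13 libraries. Since no read count is given for an unlisted position, their level after dTAG13 has no value. None of the 5 sites had a listed position within 20 nt in either dTAG13 library. Ran was classed with Tpt1 and Hnrnpa1 among genes with near-identical copies, so its levels are uncertain.

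The genes with the most intermediate sites were Gspt1 and Thap12 with 5 each, and Tsc22d1, G3bp2, Rnf139, Birc2 and Cdca5 were among those with 4. Mat2a and Mesd followed with 3 and the most reads among the genes with 3. Gspt1 encodes the translation termination factor eRF3a, and its site means ran from 44.7% to 76.5%. At chr16:11071980 the level was 14.4% in dTAG13 replicate 1, and at chr16:11038460 it was 58.0% and 48.4% untreated and 11.2% in dTAG13 replicate 1. No Gspt1 site was listed in dTAG13 replicate 2. All 5 Thap12 sites, with means from 44.8% to 72.7%, were unlisted in both dTAG13 libraries, at a gene coverage of 246 and 307.2 untreated and 224 and 294 with dTAG13.

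Tsc22d1, a leucine zipper protein, had 4 sites with means from 49.4% to 67.2%, none listed after dTAG13, the deepest at chr14:76744806 (49.8% of 2788 reads and 48.9% of 2560 reads). Cdca5, the cohesin protector sororin, had 4 sites, of which 3 were listed in 1 dTAG13 library each. Its site at chr19:6140977 went from 65.1% and 64.3% untreated to 31.7% in dTAG13 replicate 1, and that at chr19:6140764 from 74.4% and 74.7% to 13.3% in dTAG13 replicate 2. G3bp2, a stress granule protein, had 1 of its 4 sites listed after dTAG13: chr5:92200355 was at 50.6% and 50.0% untreated and 66.7% in dTAG13 replicate 1, from 33 reads. Rnf139, a ubiquitin ligase of the endoplasmic reticulum, kept 2 of 4, at 14.9% in dTAG13 replicate 1 and 32.0% in dTAG13 replicate 2. Birc2, an inhibitor of apoptosis, kept 1 of 4, at 26.8%, and Mesd, a chaperone of lipoprotein receptors, kept none of 3.

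An intermediate site was held by 14.03% of all genes with a listed position in both untreated libraries. The gene lists below were not tested against this share. Median untreated coverage was 134 and 142 in genes with such a site, against 82.7 and 84.1 in all genes. Among eye field and retinal progenitor genes, 5 of 16 held 6 intermediate sites, of which each dTAG13 library listed 1. Lhx2, a LIM-homeodomain factor needed for the eye field, had the deepest at chr2:38259446, at 87.8% of 1701 reads and 81.8% of 1797 reads, and it was unlisted in both dTAG13 libraries. Meis2, a homeobox factor of the optic vesicle, had 2 sites 39 nt apart. At chr2:115694283 the level was 57.8% and 52.5% untreated and 26.6% in dTAG13 replicate 1. At chr2:115694322 it was 42.3% and 85.5% untreated and 72.1% in dTAG13 replicate 2, within the untreated range. Sox11 (67.3% and 62.8%) and Fgf15 (52.1% and 48.98%) had under 100 reads per library and were unlisted after dTAG13.

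In the signalling lists, Notch had 7 sites in 5 of 14 genes, Wnt 9 in 7 of 18 and Hedgehog 2 in 2 of 10. Over all genes the share with an intermediate site was 14.03%, and the difference was not tested. Of the Notch sites, 3 lay in the coactivator Maml1 and 1 each in Numb, Numbl, the target Hes5 and the DNA-binding effector Rbpj. Rbpj alone was listed after dTAG13, at 47.9% and 68.5% untreated and 13.2% in dTAG13 replicate 2. Among the Wnt receptors, Fzd3 was at 75.9% and 74.7% untreated and at 18.8% of 1143 reads in dTAG13 replicate 2, and 1 of the 3 Fzd1 sites was at 50.0% and 80.3% untreated and 23.8% in dTAG13 replicate 1. Ctnnb1, the β-catenin effector of the pathway, was at 78.5% of 857 reads and 83.7% of 1000 reads and unlisted after dTAG13. Of the Hedgehog sites, Gas1 is given above, and the transcription factor Gli2 was at 88.0% and 78.8% untreated and 53.9% in dTAG13 replicate 2.

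The cell cycle list held 12 sites in 8 of 18 genes, beside 14.03% of all genes with such a site. None of the 12 was listed after dTAG13, beside 85.3% of all 2026 sites that were listed in neither dTAG13 library. The mitotic kinase Aurka had the deepest, at 41.7% of 1444 reads and 40.8% of 1327 reads, and a second at 63.7% and 74.3%. Top2a, the topoisomerase of dividing cells, was at 46.2% and 79.8%, a difference of over 30 points between untreated libraries at 708 and 1082 reads. Cenpf had 3 sites, E2f3 had 2, and E2f1, Ccne1, Mki67 and Ccnd1 had 1 each. The chromatin list held 3 sites, in Kdm6b, Arid1b and Kmt2a, all unlisted after dTAG13.

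The m6A machinery list had 8 sites in 6 of its 20 genes with a listed site, beside 14.03% of all genes. The reader Ythdf3 was at 65.5% of 1656 reads and 68.3% of 1584 reads, and the writer complex member Zc3h13 at 43.4% of 752 reads and 47.1% of 535 reads. The demethylase Alkbh5 and the writer complex members Virma and Cbll1 had 1 shallower site each. These 5 sites were unlisted after dTAG13, while the 3 Mat2a sites were listed in both libraries. The RNA-binding list had 4 sites in Hnrnpa1 and Son, of which each dTAG13 library listed 2. Of the Myc, growth and pluripotency genes, Max, the partner of Myc, had the sole site, at 71.7% and 50.4% untreated and 11.6% in dTAG13 replicate 2.

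Gene coverage, the authors' single coverage value per gene and library, was compared to see whether genes with intermediate sites changed in amount. Of 1659 such genes tested with limma on median-centred log2 coverage, 0 changed at an adjusted p under 0.05, and of all 12520 genes 0% did. Without adjustment, 170 of the 1659 (10.2%) had a p under 0.05, against 12.7% of all genes. The median log2 change was -0.10 in these genes and -0.07 over all genes, and the smallest adjusted p was 0.363. In the bulk libraries, fewer cells that express a gene and less RNA per cell cannot be told apart. The median coverage of these genes was 134 and 142 untreated and 106.4 and 145 with dTAG13, above the medians of all genes in each library (76.4 to 97.8). Their median conversion was 95.7% and 96.02% untreated and 97.0% and 96.8% with dTAG13. Unconverted A adds to every level. With levels corrected for conversion, the median change at the 45 sites was -36.7 points, against -36.1 points as listed.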

How the data were processed

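The window, the gene lists and the named sites were chosen with earlier results of these data known. The authors deposited 1 table per library: raw counts of A and G reads and of A reads per called position, the fraction of A (the level, not corrected for conversion), a conversion fraction and a coverage signal per gene, and p-values, raw and adjusted. The build in the submitters' processing notes is mm10; the aligner and caller are not given in the sources used here, nor whether duplicates were collapsed. Levels matched the counts at 100% of listed positions. Gene names were checked against RefSeq (assembly GRCm38), where 1675 of 1676 matched. Its coordinates were used only for the check of the genome build given above.

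Shares have Wilson 95% intervals. Changes of level were tested with a quasi-binomial logistic model per site (two-sided deviance F test, dispersion shrunk over sites by squeezeVar of limma, with a floor of 1), and gene coverage with limma 3.58.1 in R 4.3.3. Both used Benjamini-Hochberg adjustment over all features and a threshold of 0.05. Alternatives were limma on log2 odds with 0.5 added to the counts, edgeR 4.0.16, pooled Fisher's exact tests, read minimums, leaving out each library and a replicate block. The model scripts were tested on simulated data. Tables were otherwise handled in Python 3.11.15.

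Sites were named by these rules: the 10 largest falls past the threshold (no rise passed), the 5 of the 45 sites with the most reads in their poorest library, the 10 genes with the most sites, the 3 deepest clusters, and the gene lists; other names were chosen after their values were seen. A few sites and genes that these rules name are not reported here, and the motif comparison was not run.

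Replicate numbers did not pair the libraries: deviations of same-numbered libraries correlated at 0.04 over 2321 sites and 0.00 over 12520 genes.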

Additional observations from a re-analysis of the deposited data

How the results depend on the processing

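The ratio of intermediate sites per library, 0.716, stayed below 1 under every setting run (0.681 to 0.783), and was 0.675 to 0.758 with 1 library left out. The mean share of intermediate sites listed after dTAG13, 8.44%, moved to 9.67% at 50 reads or more, 7.41% in genes with coverage within 1.5-fold, and 7.03% with the window on the untreated mean. It was 17.4% at 500 reads or more and 12.3% at positions with a covered neighbour, both chosen after seeing the data. It ran from 3.30% to 8.84% with 1 library left out, the low values coming from windows on 1 untreated library. The dTAG13 share relative to the other untreated library, 0.324, became 0.300 at 50 reads, 0.189 at 500 reads and 0.420 with a covered neighbour, and 0.308 to 0.340 without either dTAG13 library; leaving out an untreated library leaves no background.

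Over all 2321 sites, 53 were called in the main fit, 52 with edgeR, 41 with limma on log2 odds and 531 in the Fisher's exact test. That Fisher's exact test was run on summed replicates and ignores the spread between them. Among the 45, the count of 17 lower sites was 17 with edgeR (16 shared) and 11 with limma (all among the 17). In the Fisher's exact test it was 34 (33 lower and 1 higher). It was 0 to 0 without any 1 library. With the replicate block it was also 0, and 0 of all 2321 sites were called. That block gave 27 of the 45 at an unadjusted p under 0.05, for which the share over all sites was not counted. The libraries share only a number, and the block left gene coverage at 0. The median change of -36.1 points was -35.6 to -32.2 with 1 library left out. Neighbours within 10 nt rather than 50 nt gave 0.494% and within 200 nt 10.9%, by construction. No change past the threshold reversed; the 3 Mat2a changes, which did not pass, changed sign when 1 library was left out (2.97, -3.87 and -0.51 or -5.58 points). The causes of the other shifts were not tested. The site test reached 45 of the 2026 sites, and levels under 10% cannot be listed.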

Other observations

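A few intermediate sites were read at nearly full level after dTAG13, 6 in dTAG13 replicate 1 and 10 in dTAG13 replicate 2, and none in both. In dTAG13 replicate 1 they lay in Cep19, Gpr153, Nup155, Taf6, Ube2q1 and Zdhhc20, from 23 to 95 reads. The deepest of these was Cep19, a centrosomal protein, at 44.9% and 78.1% untreated and 100% of 95 reads in dTAG13 replicate 1. In dTAG13 replicate 2 the deepest was Abl1, given above with 29.4% in the other dTAG13 library, followed by Tnfsf9, a ligand of the tumour necrosis factor family, at 53.6% and 82.9% untreated and 100% of 111 reads. Abl1 was the only one of the 16 listed in the other dTAG13 library. These sites were picked for their values and have no test.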
